A study of Mus musculus with 24 samples.

Results

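The comparison described here is of tamoxifen with vehicle in male mice made for induced knockout of Numb and Numbl in skeletal muscle. It sets 3 libraries from tamoxifen-treated males against 3 from vehicle-treated males, all from the gastrocnemius, the large calf muscle, and these are 6 of the 24 mouse libraries of the study. The genotype of all 6 was Numb(f/f) and NumbL(f/f) with the transgene HSA-MCM. Both target genes thus carried loxP sites on both alleles, in the vehicle males too. HSA-MCM expresses MerCreMer, a form of Cre that is idle until tamoxifen binds it, from the promoter of human skeletal actin, whose activity is that of the muscle fibre. The tamoxifen libraries are numbered 1055, 1062 and 1085 in the labels and the vehicle libraries 1039, 1063 and 1080, and they are called libraries 1, 2 and 3 of their group here. A further 6 male libraries, 3 after tamoxifen and 3 after vehicle, came from animals with the floxed alleles and no transgene, called flox males here although their titles read WT. Females of the HSA-MCM genotype, with 3 libraries after tamoxifen and 3 after vehicle, were used for a comparison between the sexes. The labels give no age, strain, dose or interval after treatment.

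Groups were taken from the sample titles. The treatment field of the 3 vehicle libraries reads tamoxifen, so it goes against their titles, and every value below rests on the titles. Male libraries held 21516819 to 29982077 counts. The fast myosin gene Myh4 was the most counted gene in all 12, with 4.99% to 9.27% of counts, and all 12 markers of gastrocnemius fibres were measured in every library. Esr1, the gene of the oestrogen receptor whose hormone-binding part is built into MerCreMer, had 993, 1053 and 2012 CPM (counts per 1000000 counts of the scaled library) in tamoxifen HSA-MCM males and 640.4, 1158 and 1466 CPM in vehicle HSA-MCM males, against 23.4 to 43.1 CPM in the flox males, so all 12 libraries matched their transgene labels. Replicates of a group differed by more than counting noise in each pair, and each library has a number of its own in its title. The labels do not say in words that the number is that of an animal, and p-values measure the scatter of these libraries.

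Numb and Numbl are adaptor proteins that bind cargo and the endocytic machinery at the cell membrane. They are best known as inhibitors of Notch receptors in dividing precursor cells, and in muscle they have been linked to satellite cells and to the organisation of the fibre. Tamoxifen is itself a ligand of oestrogen receptors and reaches all treated animals, with or without the recombinase. A tissue sample of muscle holds fibres, vessels, connective tissue, fat and blood, and fewer cells of a type cannot be told apart from less RNA per cell in any value given here.

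The targeted genes were read first. Numb (GRCm38 chromosome 12, 83794034 to 83921934, minus strand) had 20.1, 20.7 and 17.8 CPM in tamoxifen libraries 1, 2 and 3, against 18.4, 21 and 19.1 CPM in the vehicle libraries. The groups overlapped, and the log2 change, with its SE, was 0.00 ± 0.10 (edgeR's quasi-likelihood test, adjusted p = 1). Numbl (chromosome 7, 27258433 to 27282144, plus strand) had 4.8, 3.22 and 3.52 CPM after tamoxifen and 3.25, 2.88 and 3.02 CPM after vehicle, a log2 change of 0.34 ± 0.18 (adjusted p = 0.594). Neither gene was lower after tamoxifen at the level of the whole gene. A count over all exons mixes floxed and other exons, so these values do not check recombination, and exons of Numb overlap Gm46367 and those of Numbl overlap Gm44641.

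Tamoxifen and vehicle HSA-MCM males differed in 139 of the 15628 genes tested, which is 0.889%, at a Benjamini-Hochberg adjusted p under 0.05 in edgeR's quasi-likelihood test. Of these, 80 were higher after tamoxifen (0.512% of genes tested) and 59 were lower (0.378%), and 74 differed by at least 2-fold. The median size was 1.07 on the log2 scale. In all 139 the 3 tamoxifen libraries lay entirely on one side of the 3 vehicle libraries, which was the case for 13.8% of all genes tested. The calls and the separation were read from the same libraries, so the separation is not separate evidence for the calls. Protein-coding genes made up 127 of the 139 calls, at 0.966% of those tested, and long intergenic RNAs made up 6, at 1.44%. The exons of 40 of the 139 overlap those of another gene, so their counts are uncertain. The plot of leading genes by library shows that the separation rests on tight groups for some genes and on wide ones for others.

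**Figure D1:**
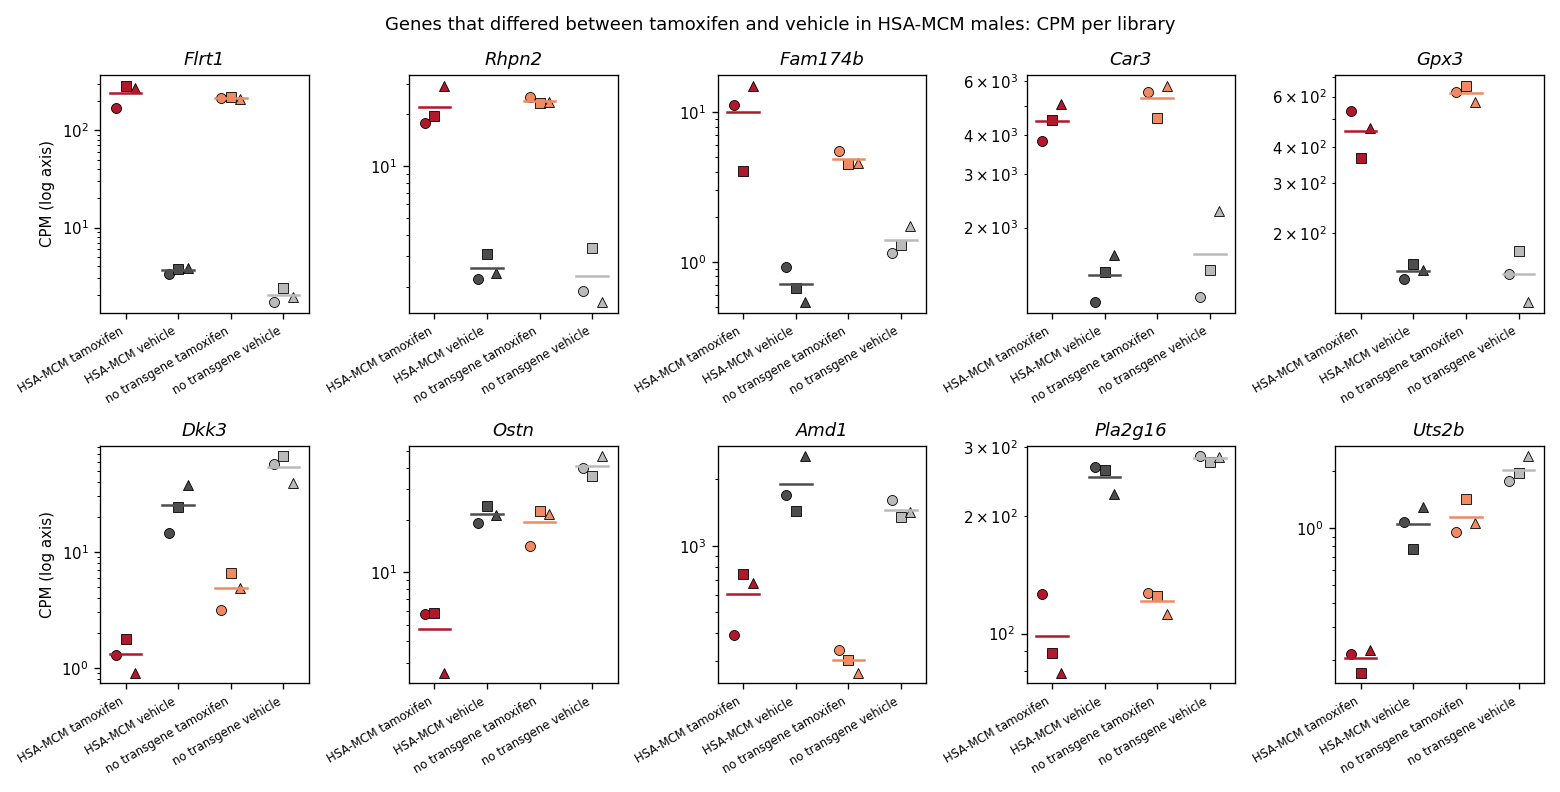
CPM on log axes for 10 named genes in the 12 male libraries, with HSA-MCM males after tamoxifen, HSA-MCM males after vehicle and the corresponding flox males (no transgene) from left to right. Circles, squares and triangles are libraries 1, 2 and 3 and bars are means of 3; Flrt1 lies at 171 to 289 CPM in tamoxifen and 3.32 to 3.81 CPM in vehicle HSA-MCM males, and Uts2b at 0.172 to 0.227 and 0.777 to 1.28 CPM.

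The most extreme gene was Flrt1, which encodes a leucine-rich repeat transmembrane protein of cell adhesion and fibroblast growth factor signalling (chromosome 19, 7092001 to 7105729, minus strand). It had 171, 289 and 273 CPM in tamoxifen HSA-MCM males, against 3.32, 3.73 and 3.81 CPM in vehicle HSA-MCM males. The log2 change amounted to 6.08 ± 0.20 (adjusted p = 5.29e-09) and ran from 5.94 to 6.28 over the 22 alternative fits tried. In flox males the same gene had 215, 218 and 209 CPM after tamoxifen and 1.72, 2.37 and 1.92 CPM after vehicle, a log2 change of 6.73 ± 0.21 (adjusted p = 2.8e-09). The difference between these responses was -0.66 ± 0.26 on the log2 scale (adjusted p = 0.544), so Flrt1 rose with and without the recombinase.

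Several neighbours of Flrt1 moved as well, in both directions. Chromosome 19 held 14 calls among 508 genes tested (2.76%, 10 higher and 4 lower), against 1.66% on chromosome 11, the next highest, and 0.186% on chromosome 14, the lowest. Within 1 Mb of Flrt1, 4 of 46 tested neighbours were called, against 0.889% called among all genes. Otub1, a deubiquitinase gene 92.5 kb away, had 56, 60.8 and 60 CPM after tamoxifen and 36.3, 39.4 and 39.9 CPM after vehicle (log2 change 0.61 ± 0.07, adjusted p = 0.0022). Mark2, a kinase gene of cell polarity at 169.7 kb, rose by 0.59 ± 0.12 (adjusted p = 0.0357), a call lost in 12 of 22 alternative fits. Macrod1, an ADP-ribose hydrolase gene on the plus strand whose body spans Flrt1, fell to 124, 114 and 85.5 CPM in tamoxifen males, against 198, 202 and 232 CPM in vehicle males (log2 change -0.97 ± 0.13, adjusted p = 0.00374). Pla2g16, a phospholipase gene at 452 kb, had 127, 89.1 and 79.4 CPM after tamoxifen and 267, 262 and 227 CPM after vehicle (log2 change -1.36 ± 0.14, adjusted p = 0.000672). The median log2 change of the 46 neighbours was 0.02, and over the 222 tested genes within 5 Mb it was -0.02. A further cluster of calls outside this window held Syt12, Lrfn4 and Pcx, whose body spans Lrfn4. In flox males 3 of the 4 close neighbours were also called, and Mark2 had a log2 change of 0.25 ± 0.12 (adjusted p = 0.294).

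**Figure D2:**
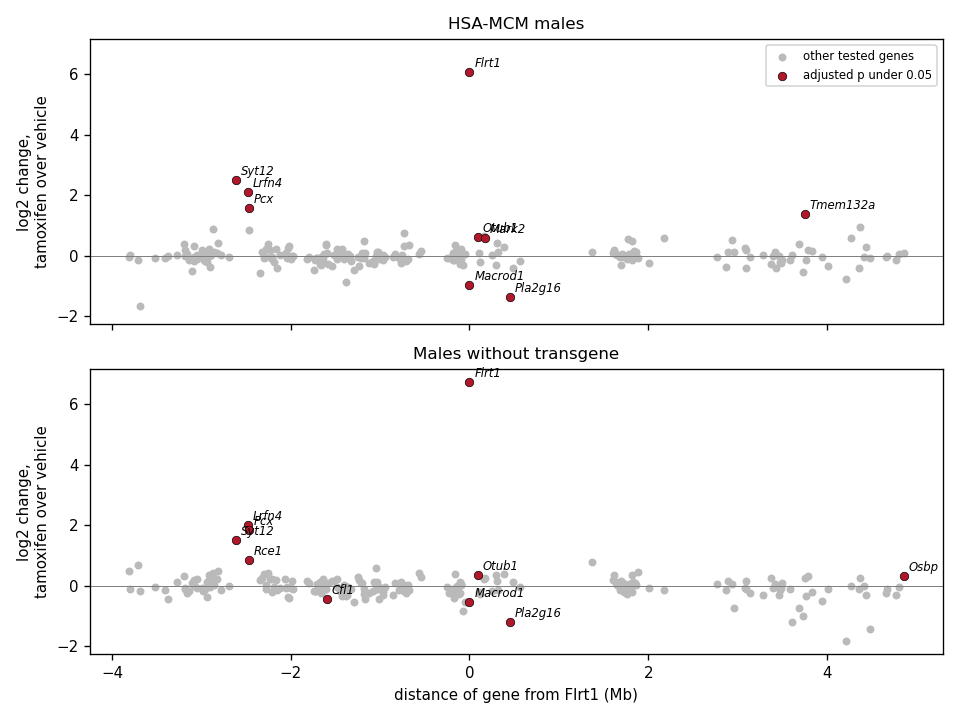
Log2 change, tamoxifen over vehicle, of each tested gene within 5 Mb of Flrt1 on chromosome 19, against the distance in Mb between the gene and Flrt1, for HSA-MCM males above and flox males below. Red points passed an adjusted p of 0.05 and grey points did not; in HSA-MCM males Flrt1 stands at 6.08, Otub1 and Mark2 at 0.61 and 0.59, and Pla2g16 at -1.36.

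Among the other large rises were genes of cell adhesion, membrane signalling and synaptic vesicles. Rhpn2, a gene of the rhophilin family of GTPase-binding proteins (chromosome 7, 35334170 to 35392289), had 17.7, 19.4 and 29.3 CPM in tamoxifen males and 2.21, 3.11 and 2.4 CPM in vehicle males, a log2 change of 3.10 ± 0.26 (adjusted p = 0.000311). Lrfn4, a synaptic adhesion gene (chromosome 19, 4611785 to 4615667), had 8.26, 6.44 and 11.9 CPM after tamoxifen and 2.32, 1.96 and 1.95 CPM after vehicle (log2 change 2.09 ± 0.21, adjusted p = 0.000517). Syt12, of the synaptotagmin family of vesicle proteins, rose by 2.50 ± 0.30 (adjusted p = 0.00208). Fam174b had 11.1, 4.04 and 15 CPM against 0.927, 0.666 and 0.539 CPM after vehicle, with tamoxifen library 2 well below the other two, and changed by 3.81 ± 0.43 (adjusted p = 0.0022). Adgrb2, an adhesion G protein-coupled receptor gene, had 2.42, 2.71 and 2.68 CPM after tamoxifen and 0.285, 0.148 and 0.497 CPM after vehicle (log2 change 3.07 ± 0.43, adjusted p = 0.004). The vehicle level of Adgrb2 is so low that its fold is imprecise. Exons of Rhpn2 overlap Faap24, those of Syt12 overlap A930001C03Rik and those of Fam174b overlap A830073O21Rik.

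Promoters are shown for 3 called genes, Rhpn2 and Lrfn4 because they were called in all 22 alternative fits and Amd1, described below, because it was the most abundant gene that fell. Each sequence is the 250 bases before the gene's start in RefSeq (GRCm38.p6), on the strand of the gene, at chr7:35333987-35334236 (plus) for Rhpn2, chr19:4615668-4615917 (minus) for Lrfn4 and chr10:40302189-40302438 (minus) for Amd1. Capitals mark GC boxes (GGGCGG), the CCAAT box (CCAAT) and the E-box (CACGTG), each read on both strands.
Rhpn2: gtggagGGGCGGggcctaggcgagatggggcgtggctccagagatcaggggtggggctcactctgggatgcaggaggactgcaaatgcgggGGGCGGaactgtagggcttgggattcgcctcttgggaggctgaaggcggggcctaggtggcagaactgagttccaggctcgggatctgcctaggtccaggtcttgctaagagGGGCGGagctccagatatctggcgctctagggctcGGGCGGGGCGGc
Lrfn4: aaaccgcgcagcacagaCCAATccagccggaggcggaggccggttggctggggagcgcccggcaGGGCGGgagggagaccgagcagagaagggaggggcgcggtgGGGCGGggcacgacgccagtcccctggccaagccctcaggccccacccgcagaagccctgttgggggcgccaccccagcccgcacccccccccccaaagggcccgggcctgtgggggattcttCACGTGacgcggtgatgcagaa
Amd1: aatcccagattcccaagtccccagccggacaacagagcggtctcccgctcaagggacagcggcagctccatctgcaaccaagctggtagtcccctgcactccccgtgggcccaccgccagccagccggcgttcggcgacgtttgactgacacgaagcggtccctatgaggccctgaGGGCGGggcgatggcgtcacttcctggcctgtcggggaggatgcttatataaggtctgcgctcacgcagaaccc
Of the 46 called genes named by rule, 30 were found in the promoter table. A gene counted as having a motif if any of its listed starts had it. The shares of all are of single promoters, of genes tested or not, so the comparison is not of like with like. A GC box was present in 19 of these 30, and in 32.7% of all 32851 promoters. The full oestrogen response element was present in 0 of 30 and in 0.0639% of all promoters, and a single arm of it, AGGTCA, in 3 of 30 and in 14% of all. The AP-1 site TGAGTCA was in 2 of 30 (4.46% of all) and the E-box in 3 of 30 (6.02% of all). Some of these letters overlap each other in a promoter, and a match describes the sequence only.

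Transcription factor, small GTPase and secreted factor genes were also among the rises. Mycn, a growth-related transcription factor gene, had 1.44, 3.31 and 2.31 CPM after tamoxifen and 0.178, 0.333 and 0.331 CPM after vehicle, a log2 change of 3.05 ± 0.38 (adjusted p = 0.00257). Alx4, a homeobox gene, had 1.95, 2.45 and 2.08 CPM after tamoxifen and 0.428, 0.333 and 0.621 CPM after vehicle (log2 change 2.23 ± 0.33, adjusted p = 0.00581). In flox males Alx4 did not separate by treatment, with 1.16, 1.68 and 1.13 CPM after tamoxifen and 1.31, 1.54 and 0.748 CPM after vehicle. Rasl11b, of a Ras-like GTPase family, rose by 2.17 ± 0.33 (adjusted p = 0.00837) and Tmem266, a voltage-sensing membrane protein gene, rose by 2.06 ± 0.26 (adjusted p = 0.00256). Stc2, the secreted glycoprotein stanniocalcin, rose by 1.83 ± 0.37 (adjusted p = 0.0387) and Cyp4f39, a cytochrome P450 gene, rose by 1.87 ± 0.37 (adjusted p = 0.035). The calls of Stc2 and Cyp4f39 were each lost in 11 of 22 alternative fits.

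Among called genes with a symbol other than a clone name and a mean log2 CPM of at least 0, the 3 largest falls were those of Dkk3, Uts2b and Ostn. Dkk3, a secreted glycoprotein of the dickkopf family (chromosome 7, 112116017 to 112159057), had 1.3, 1.76 and 0.907 CPM in tamoxifen males and 14.4, 24.4 and 37.4 CPM in vehicle males. Its log2 change was -4.27 ± 0.45 (adjusted p = 0.00336), with more than 2-fold spread among the vehicle libraries. Ostn, which encodes the muscle-secreted peptide osteocrin or musclin, had 5.74, 5.84 and 2.65 CPM after tamoxifen and 19.3, 24.1 and 21.4 CPM after vehicle, a log2 change of -2.19 ± 0.27 (adjusted p = 0.00378). In flox males Ostn had 14.2, 22.5 and 21.8 CPM after tamoxifen and 40, 35.8 and 46.4 CPM after vehicle (log2 change -1.06 ± 0.25, adjusted p = 0.047). Uts2b, a precursor of a urotensin-related peptide that lies next to Ostn on chromosome 16, had 0.216, 0.172 and 0.227 CPM after tamoxifen and 1.07, 0.777 and 1.28 CPM after vehicle (log2 change -2.31 ± 0.33, adjusted p = 0.00571). Exons of Ostn overlap Gm32312.

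Some of the other falls were of low-abundance genes of several kinds, and others, such as that of Smtnl2 below, were of more abundant genes. Cd27, a receptor of lymphocytes, had 0.505, 0.558 and 0.491 CPM after tamoxifen and 2.39, 1.7 and 1.86 CPM after vehicle (log2 change -1.93 ± 0.28, adjusted p = 0.00573). Macrophage and leukocyte markers summed to 113, 59.4 and 80.8 CPM after tamoxifen and to 116, 75.5 and 47.5 CPM after vehicle, so the sums overlapped. Sorcs1, a sortilin-family receptor gene, fell by 1.76 ± 0.32 on the log2 scale (adjusted p = 0.0231). Serpinb6b, a serine protease inhibitor gene, had 0.505, 0.387 and 0.340 CPM after tamoxifen and 1.36, 1.04 and 1.95 CPM after vehicle (log2 change -1.79 ± 0.37, adjusted p = 0.0433). In flox males Serpinb6b changed by 0.17 ± 0.32 (adjusted p = 0.827). Its call in HSA-MCM males was lost in 12 of 21 alternative fits. The hairpin gene Mir6338 (chromosome 11, 72388756 to 72388864) changed by -1.73 ± 0.37 (adjusted p = 0.0478), and this call was lost in 16 of 21. It lies just beyond the 3′ end of Smtnl2, a smoothelin-like gene that had 233, 289 and 361 CPM after tamoxifen and 459, 449.8 and 626 CPM after vehicle (log2 change -0.80 ± 0.17, adjusted p = 0.0433).

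Polyamine synthesis was represented by Amd1, the gene of S-adenosylmethionine decarboxylase (chromosome 10, 40287458 to 40302186). It had 394, 743 and 681 CPM in tamoxifen males and 1705, 1443 and 2546 CPM in vehicle males, a log2 change of -1.65 ± 0.24 (adjusted p = 0.00837). Flox males had 337, 301 and 265 CPM after tamoxifen and 1606, 1353 and 1420.1 CPM after vehicle, a log2 change of -2.28 ± 0.25 (adjusted p = 0.00104). The retrogene Amd2 and the pseudogenes Amd-ps3 and Amd-ps4 changed by -1.62 ± 0.29, -1.69 ± 0.29 and -1.72 ± 0.29 in HSA-MCM males. These are not separate observations, since of the 50-base stretches of their transcripts 85.7%, 94.8% and 79.1% also occur in transcripts of Amd1, and reads can be split among the copies. Smox, the spermine oxidase gene, did not pass, with 40.8, 137 and 114 CPM after tamoxifen and 321, 268 and 621 CPM after vehicle (log2 change -2.06 ± 0.48, adjusted p = 0.116). Of 16 tested genes of polyamine metabolism, 0 were higher and 2 were lower, Amd1 and Amd2, with a list median of 0.01. Among all genes tested 0.889% were called. The call of Amd2 was lost in 12 of 22 alternative fits. In the oestrogen and androgen list Amd1 was the only call among 21 genes (median -0.16), and in the list of muscle-secreted factors Dkk3 and Ostn were the 2 calls, both lower, among 26 (median -0.04). An unadjusted p under 0.05 was found for 4 of the 16, 3 of the 21 and 6 of the 26, against 10.1% of all genes.

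Several abundant genes of fibre metabolism and chromatin were higher after tamoxifen. Car3, a carbonic anhydrase of muscle and fat, had 3824, 4479 and 5049 CPM in tamoxifen males and 1145, 1431 and 1629 CPM in vehicle males (log2 change 1.67 ± 0.22, adjusted p = 0.00374). Gpx3, a secreted glutathione peroxidase gene, had 534, 367 and 468 CPM after tamoxifen and 138, 156 and 149 CPM after vehicle (log2 change 1.63 ± 0.15, adjusted p = 0.000337). Fbp2, the muscle fructose bisphosphatase, had 78.6, 110.4 and 136 CPM after tamoxifen and 28, 41.2 and 41.9 CPM after vehicle (log2 change 1.55 ± 0.21, adjusted p = 0.00581). Kmt5a, a histone methyltransferase gene, had 344, 451 and 518 CPM after tamoxifen and 159, 168 and 189 CPM after vehicle (log2 change 1.35 ± 0.13, adjusted p = 0.000395), a call that was kept in all 22 alternative fits. All 4 genes were called in flox males too, at log2 changes of 1.69, 2.10, 2.11 and 1.07.

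Smaller changes of abundant genes passed with less margin. Myom2, an M-band protein of the sarcomere, had 2232, 2766 and 2874 CPM after tamoxifen and 1805, 1736 and 1685 CPM after vehicle (log2 change 0.59 ± 0.12, adjusted p = 0.042). Dmpk, the myotonic dystrophy kinase gene, rose by 0.65 ± 0.14 (adjusted p = 0.0433), and Ank, a membrane protein of pyrophosphate export, fell by 0.45 ± 0.09 on the log2 scale (adjusted p = 0.042). Each of these 3 calls, and that of Smtnl2, was lost in 13 of 22 alternative fits, with the direction kept.

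Fibre type varied widely between the libraries of each group. Myh7, the myosin heavy chain of slow fibres (chromosome 14, 54970684 to 54994626), had 767, 221 and 10.3 CPM in tamoxifen libraries 1, 2 and 3 and 422, 937 and 63.2 CPM in vehicle libraries 1, 2 and 3. Vehicle library 2 was the highest and tamoxifen library 3 the lowest, a ratio of 91.1 within 1 muscle of 1 genotype, and the groups overlapped fully (log2 change -0.51 ± 1.21, adjusted p = 0.937). Flox males were more even, with 1030.4, 1123 and 850.2 CPM after tamoxifen and 675, 677 and 798 CPM after vehicle. Most of the other 16 slow fibre genes were high and low in the same libraries as Myh7. Over all 17, 15 were highest in the library that was highest for Myh7, 15 had the same 2 lowest libraries, and 11 had the same order of all 6. Casq2, the slow form of calsequestrin, was highest in another library, Pln, the phospholamban gene, had other lowest libraries, and Sln, the sarcolipin gene, differed in both. The ratio of the highest to the lowest of the 6 libraries ran from 2.98 to 91.1 over the 17 genes. The slow troponin gene Tnnt1 had 234, 68 and 7.83 CPM after tamoxifen and 143, 307 and 33.8 CPM after vehicle, and the slow calcium pump gene Atp2a2 had 601, 202 and 48.6 CPM and 494, 738 and 111 CPM.

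No slow fibre gene passed the test. Of the 17, 0 were called in edgeR's test, 0 had an unadjusted p under 0.05, against 10.1% of all genes tested, and the median log2 change was -0.55. Myh2, the myosin of oxidative fast fibres, had 4216, 1545 and 339 CPM after tamoxifen and 3561, 4884 and 702 CPM after vehicle, so it was low in the same libraries as Myh7. Myh1, of intermediate fast fibres, had 8267, 3269.9 and 2655 CPM after tamoxifen and 3943, 6064 and 964 CPM after vehicle. Myh4, of the fastest fibres, had 46377, 100024 and 85435 CPM after tamoxifen and 81183, 74269.5 and 95312 CPM after vehicle, lowest in tamoxifen library 1. With the log2 CPM of Myh7 as a covariate, 207 genes were called in place of 139, 104 higher and 103 lower, and they held 138 of the 139. Without the library lowest in Myh7 in each HSA-MCM group, an alternative added after the data were seen, 45 genes were called, 41 of them among the 139. Without the lowest library of each of the 4 male groups, 14 were called, 12 of them among the 139. Fewer libraries enter these last fits, and the part of fibre type in single calls was not tested.

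**Figure D3:**
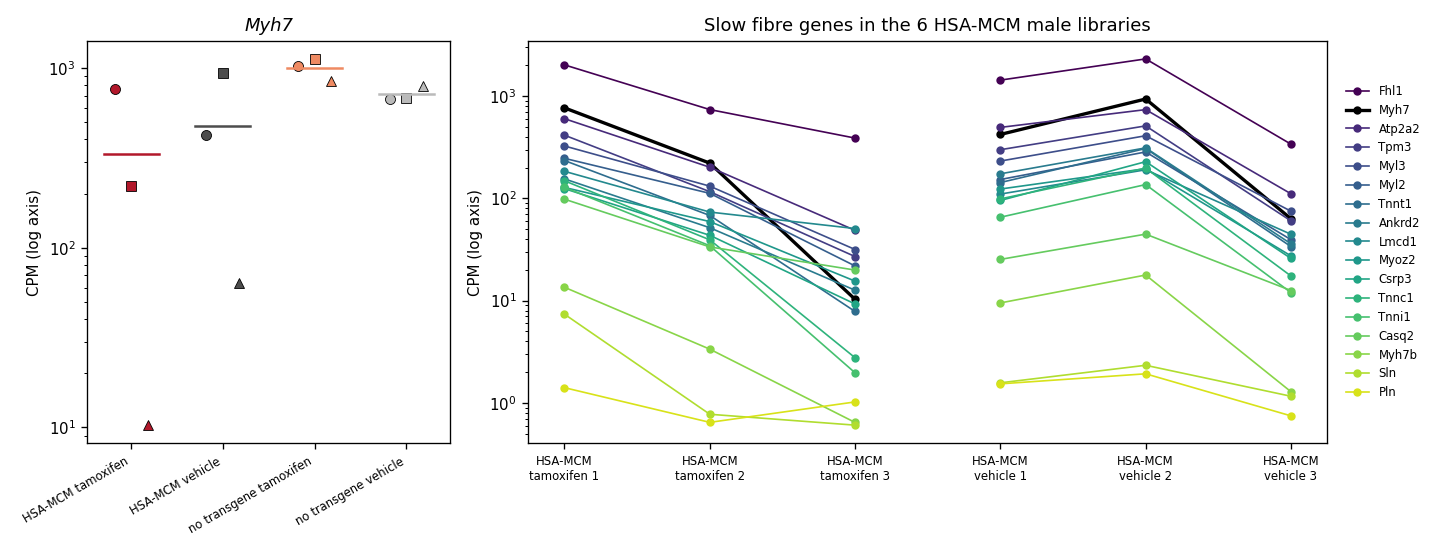
Left, Myh7 in CPM on a log axis in HSA-MCM males after tamoxifen and vehicle and in flox males (no transgene) after tamoxifen and vehicle, with circles, squares and triangles for libraries 1, 2 and 3 and bars for means of 3. Right, CPM on a log axis of the 17 slow fibre genes in the 3 tamoxifen and 3 vehicle HSA-MCM libraries, where lines only join the points of a gene; Myh7 (black) falls between 10.3 CPM in tamoxifen library 3 and 937 CPM in vehicle library 2, and most genes share its pattern.

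Of 35 tested genes of the Notch pathway, the one Numb is known for, 0 were higher and 1 was lower, against 0.889% called among all genes. The log2 changes ran between -1.25 and 0.83 with a median of 0.03. In 5 of the 35 the tamoxifen libraries all lay above the vehicle libraries and in 4 they all lay below, against 6.93% and 6.85% of all genes tested. The 1 called member was Mib1, a ubiquitin ligase that drives endocytosis of Notch ligands. It had 44.2, 74.1 and 49 CPM after tamoxifen and 96.7, 129.7 and 172 CPM after vehicle (log2 change -1.25 ± 0.23, adjusted p = 0.0319), and the call was lost in 13 of 22 alternative fits. Among 37 Numb partners and endocytic adaptors 0 were called and the median was -0.03. Among 11 tested septins, proteins of the membrane cytoskeleton, 0 were called and the median was 0.23. Unadjusted p-values under 0.05 were found for 3 Notch genes, 3 Numb partners and 2 septins, against 10.1% of all genes.

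Other muscle lists also held few calls. The sarcomere list had 1 call in 32, Myom2, against 0.889% called among all genes, and a median of -0.10. The fast fibre list (16 tested), calcium handling (24), denervation and atrophy (36), neuromuscular junction (21) and myogenic factors (20) had 0 calls each, with medians between -0.09 and 0.04, and 0, 5, 7, 2 and 4 members at an unadjusted p under 0.05, against 10.1% of all genes. The widest member was Actc1, the cardiac actin gene of growing and regenerating fibres, with 1181, 258 and 544 CPM after tamoxifen and 129, 79.9 and 37.4 CPM after vehicle. It separated the groups but did not pass (log2 change 3.01 ± 0.66, adjusted p = 0.0965). In the insulin and insulin-like growth factor list 2 of 30 were higher, against 0.512% of all genes tested. Of the 30, 9 had an unadjusted p under 0.05, against 10.1% of all genes. The tamoxifen libraries all lay above the vehicle libraries in 6 and all below in 3, against 6.93% and 6.85% of all genes tested. Tbc1d1, a regulator of glucose transporter traffic, had 122, 144 and 163 CPM after tamoxifen and 70.6, 72.9 and 67.1 CPM after vehicle (log2 change 1.03 ± 0.21, adjusted p = 0.0463). Grb10, an adaptor that restrains the insulin receptor, had 44.4, 36.3 and 53 CPM after tamoxifen and 25.2, 29.7 and 31.2 CPM after vehicle (log2 change 0.64 ± 0.13, adjusted p = 0.0451). Their calls were lost in 15 and 14 of 22 alternative fits.

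Stress and metabolic lists held 1 or 2 calls each, or 0, against 0.889% called among all genes. Xbp1, a transcription factor of the unfolded protein response, had 89.1, 80.4 and 88 CPM after tamoxifen and 46.3, 51.6 and 49 CPM after vehicle (log2 change 0.81 ± 0.11, adjusted p = 0.00374), the only call among 28 genes of that response. Srebf1, a transcription factor of lipid synthesis, had 24.2, 35.4 and 23 CPM after tamoxifen and 54.3, 49.1 and 60.1 CPM after vehicle (log2 change -0.99 ± 0.15, adjusted p = 0.00881), the only call among 26 genes of cholesterol synthesis. Sesn1, a sestrin gene of the p53 pathway, rose by 0.71 ± 0.13 (adjusted p = 0.0282), 1 of 22 in its list. Slc7a2, a cationic amino acid transporter gene, had 83.4, 95.9 and 117 CPM after tamoxifen and 49.3, 50.9 and 48.3 CPM after vehicle (log2 change 0.99 ± 0.16, adjusted p = 0.00899), 1 of 21 in its list. The small heat shock gene Hspb2, whose exons overlap Cryab, rose by 0.43 ± 0.08 (adjusted p = 0.0319), 1 of 28 chaperones, and its call was lost in 12 of 22 alternative fits. Fbp2 was 1 of 32 in glycolysis and glycogen, and Gpx3 and Car3 were 2 of 36 in antioxidant defence, a list whose median was -0.08. Unadjusted p-values under 0.05 were found for 9 of those 36, for 4 of the 22 p53 genes and 4 of the 21 transporters, and for 1 of the 28 genes of the unfolded protein response, in which Chac1, a glutathione-degrading enzyme gene, had the lowest log2 change, -1.30, and did not pass. Fatty acid oxidation (33 tested), oxidative phosphorylation (51), the circadian clock (20), immediate early genes (26), interferon response genes (35), glucocorticoid responsive genes (24) and MAP kinase phosphatases (17) had 0 calls each in edgeR's test, with 3, 1, 0, 1, 1, 6 and 2 members at an unadjusted p under 0.05, against 10.1% of all genes. The plot of gene lists shows these medians near 0 and the few called members apart from them.

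**Figure D4:**
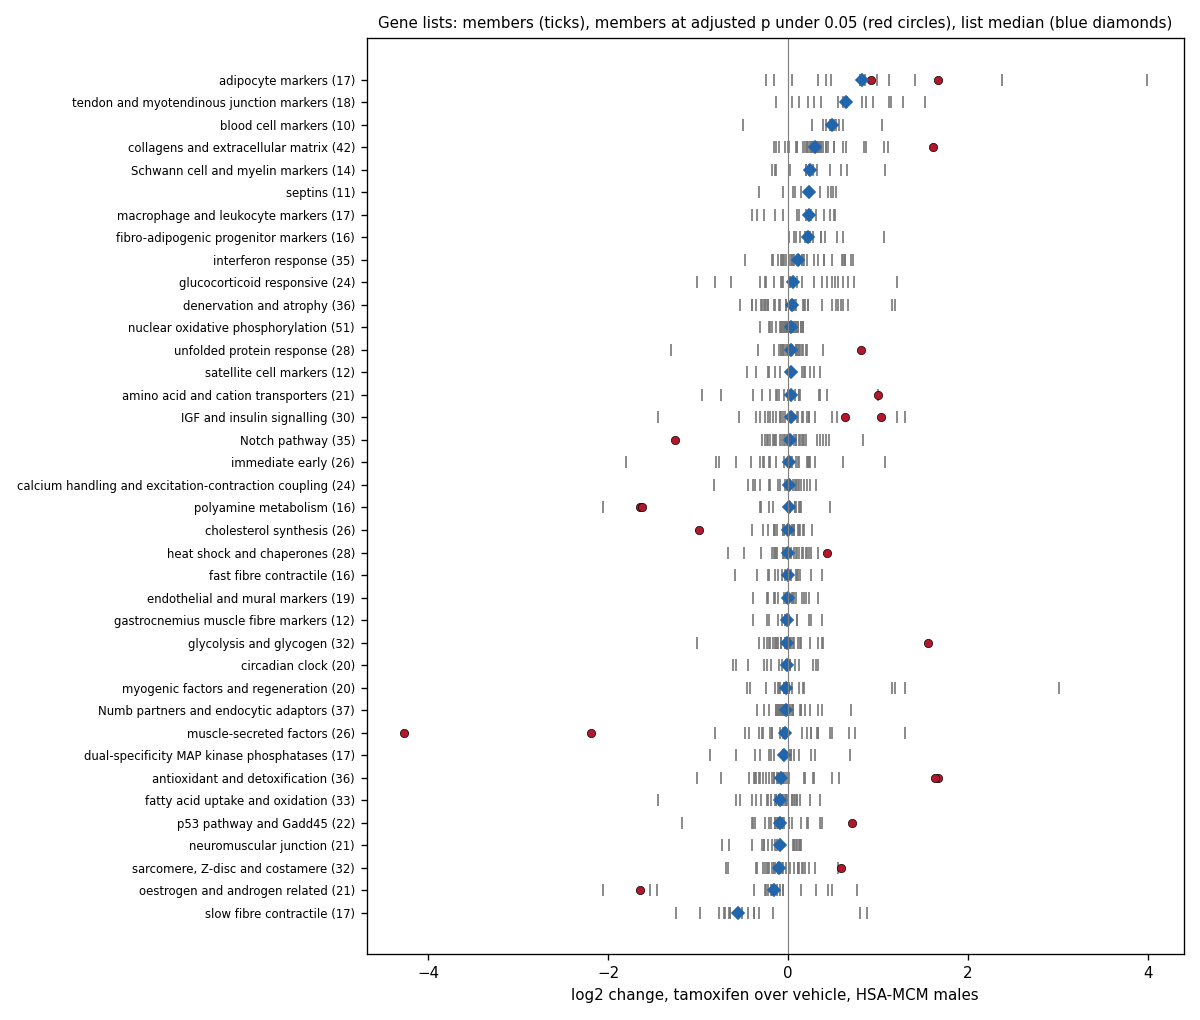
Log2 change, tamoxifen over vehicle in HSA-MCM males, of the tested members of 38 gene lists (number tested in brackets), ordered by list median. Grey ticks are members that did not pass, red circles members at an adjusted p under 0.05 and blue diamonds medians; the adipocyte list has the highest median, 0.82, and the slow fibre list the lowest, -0.55.

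Lists of connective tissue, fat and blood markers had medians above 0 and held 3 calls. Of 42 matrix genes 1 was called, against 0.889% called among all genes, and 38 had a log2 change above 0, with a median of 0.30. In 13 of the 42 the tamoxifen libraries all lay above the vehicle libraries, against 6.93% of all genes tested, and in 0 they all lay below, against 6.85%. The called gene was Postn, a matricellular protein, with 15.1, 9.79 and 9.72 CPM after tamoxifen and 4.17, 4.1 and 3.02 CPM after vehicle (log2 change 1.61 ± 0.25, adjusted p = 0.00842). The collagen gene Col1a1 had 95.8, 144 and 118 CPM after tamoxifen and 63.2, 46 and 62.1 CPM after vehicle and did not pass (log2 change 1.06 ± 0.32, adjusted p = 0.247). In flox males the matrix list had a median of -0.26. Tendon markers had 0 calls in 18 and a median of 0.65, and fibro-adipogenic progenitor markers had 0 in 16 and a median of 0.23, all 16 above 0. An unadjusted p under 0.05 was found for 8 matrix genes, 5 tendon markers and 4 fibro-adipogenic markers, against 10.1% of all genes. Tamoxifen libraries all lay above vehicle libraries in 6 tendon and 3 fibro-adipogenic markers, and all below in 0 of either. In flox males the medians of these marker lists were -0.22 and -0.06. Summed over the list, tendon markers came to 241, 285 and 290 CPM after tamoxifen and 229, 193 and 172 CPM after vehicle. Fibro-adipogenic markers came to 1145, 1118 and 1215 CPM after tamoxifen and 1155, 792 and 848 CPM after vehicle. No marker of either list was at 0 counts in all 6 libraries, and the part of connective tissue in the called genes was not tested.

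Adipocyte markers had 2 calls in 17, both higher, against 0.889% called among all genes, and a median of 0.82. Of the 17, 15 had a log2 change above 0, and 5 had an unadjusted p under 0.05, against 10.1% of all genes. In 5 the tamoxifen libraries all lay above the vehicle libraries and in 0 they all lay below, against 6.93% and 6.85% of all genes tested. The calls were Car3 and Plin4, a lipid droplet protein that muscle fibres also make, which had 291, 199 and 266 CPM after tamoxifen and 117, 168 and 115 CPM after vehicle (log2 change 0.92 ± 0.16, adjusted p = 0.0202). Several fat genes were low, and they differed in whether the groups overlapped. Adipoq, the adiponectin gene, had 1.88, 4.6 and 2.5 CPM after tamoxifen and 2.14, 0.481 and 1.86 CPM after vehicle, and Plin1, a lipid droplet gene, had 1.52, 5.07 and 3.52 CPM after tamoxifen and 1.82, 0.924 and 1.86 CPM after vehicle, so both overlapped. The brown fat gene Ucp1 had 0.866, 2.02 and 0.983 CPM after tamoxifen and 0.0357, 0.0370 and 0.166 CPM after vehicle, without overlap (adjusted p = 0.435). Summed over the list without regard to length, adipocyte markers came to 4339, 4906 and 5508 CPM after tamoxifen and 1473, 1806 and 1896 CPM after vehicle, and Car3 made up most of each sum. In flox males the list also had 2 calls, both higher, and a median of 0.18. The sums there were 6144, 5588 and 6443 CPM after tamoxifen and 1753, 1936 and 2741 CPM after vehicle. The part of fat in the changes of Car3 and Plin4 was not tested. Blood cell markers summed to 528, 302 and 645 CPM after tamoxifen and 371, 417 and 326 CPM after vehicle, with 0 of 10 called and a median of 0.49. Endothelial and mural, satellite cell, Schwann cell and leukocyte lists had 0 calls in 19, 12, 14 and 17, with medians of -0.003, 0.03, 0.24 and 0.23.

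Flox males showed most of the same changes after tamoxifen. They share no library with the HSA-MCM males, but the spread of each gene was estimated over all 12 male libraries together. The calls in the 2 genotypes are therefore not fully independent, and a fit of the 6 HSA-MCM males alone called 27 genes. The fit over all 12 libraries called 452 genes in flox males, 2.89% of those tested. Of the 139 genes called in HSA-MCM males, 92 were also called in flox males, which is 66.2% of the 139 and 20.4% of the 452. All 92 moved in the same direction, 52 higher and 40 lower, and 133 of the 139 had the same sign. The 80 genes that rose in HSA-MCM males had a median log2 change of 1.05 there and 0.76 in flox males, and the 59 that fell had medians of -1.08 and -0.80. These genes were chosen by their calls in HSA-MCM males, which tends to enlarge the medians there. The medians therefore do not show which genotype responded more. Dkk3, for example, had 3.14, 6.51 and 4.86 CPM after tamoxifen and 57.1, 66.5 and 38.9 CPM after vehicle in flox males, a log2 change of -3.48 ± 0.40 (adjusted p = 0.00305). Rhpn2 changed there by 3.36 ± 0.26 (adjusted p = 6.08e-05) and Lrfn4 by 2.00 ± 0.20 (adjusted p = 0.000289).

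**Figure D5:**
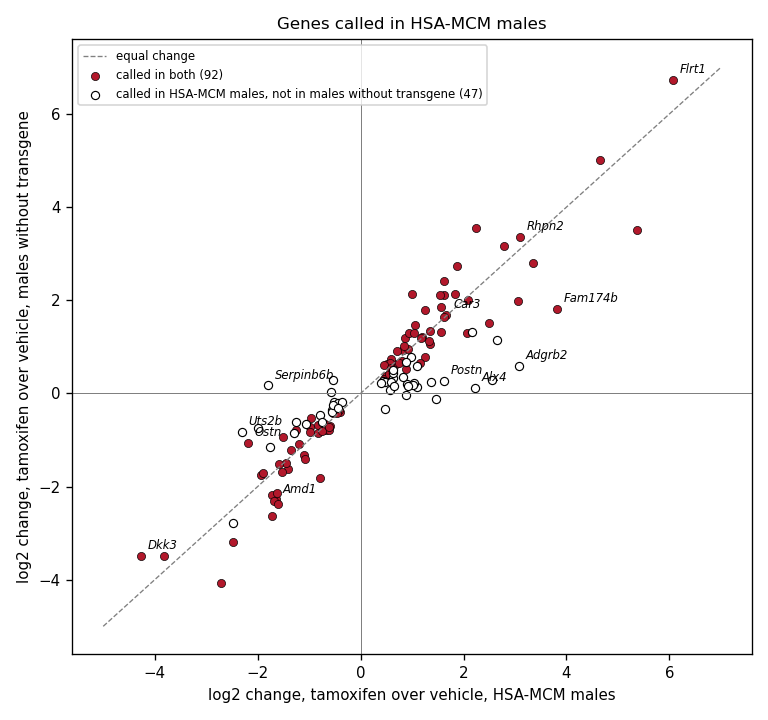
Log2 change, tamoxifen over vehicle, in HSA-MCM males (x axis) and in flox males without the transgene (y axis) for the 139 genes called in HSA-MCM males. Filled points (92) were called in both and open points (47) in HSA-MCM males and not in flox males, and the dashed line marks equal change; 133 of 139 points share a sign, and Adgrb2, Alx4, Postn and Serpinb6b lie near 0 on the y axis.

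The difference between the responses of the 2 genotypes was tested directly, as an interaction over the 12 male libraries. Of 15628 genes, 2 passed (0.0128%), Eno1b and Aldh3a1, and 1290 had an unadjusted p under 0.05. Eno1b, an enolase gene, had 7.25, 6.49 and 13.6 CPM after tamoxifen and 8.52, 7.77 and 8.87 CPM after vehicle in HSA-MCM males, and 10.7, 6.89 and 6.12 CPM after tamoxifen and 0.164, 0.251 and 0.327 CPM after vehicle in flox males. The flox vehicle group alone was low, and the difference of log2 changes was -4.86 ± 0.49 (adjusted p = 0.00478). Of the 50-base stretches of Eno1b transcripts 76.4% also occur in transcripts of Eno1, so its count is uncertain. Aldh3a1, an aldehyde dehydrogenase gene, had 0.253, 0.172 and 0.302 CPM after tamoxifen and 0.357, 0.148 and 0.331 CPM after vehicle in HSA-MCM males, and 4.0, 5.86 and 8.31 CPM after tamoxifen and 0.164, 0.108 and 0.140 CPM after vehicle in flox males (difference -5.61 ± 0.65, adjusted p = 0.00644). In flox males Eno1b rose by 4.98 ± 0.40 (adjusted p = 6.08e-05) and Aldh3a1 by 5.43 ± 0.40 (adjusted p = 2.42e-05), while in HSA-MCM males neither passed (adjusted p = 0.931 and 0.944). The third smallest p was that of Cebpd, a transcription factor gene of stress and glucocorticoid responses, which did not pass. It had 22.9, 14.2 and 21.7 CPM after tamoxifen and 41.8, 22.7 and 26.8 CPM after vehicle in HSA-MCM males, and 21.1, 20.9 and 23.7 CPM after tamoxifen and 7.44, 5.81 and 7.9 CPM after vehicle in flox males (difference -2.27 ± 0.33, adjusted p = 0.103).

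Among the 47 genes called in HSA-MCM males and not in flox males, 0 passed the interaction test in edgeR and 41 had the same sign in flox males. An unadjusted interaction p under 0.05 was found for 22 of the 47, against 1290 of all 15628 genes. The 47 were chosen by passing in 1 genotype and not the other, which by itself favours a small interaction p. Adgrb2 had 0.784, 1.11 and 0.898 CPM after tamoxifen and 0.245, 0.682 and 0.935 CPM after vehicle in flox males, and the difference of log2 changes was 2.48 ± 0.60 (adjusted p = 0.294). For Alx4 the difference was 2.10 ± 0.45 and for Serpinb6b it was -1.97 ± 0.49, with adjusted p-values of 0.236 and 0.301. For Uts2b it was -1.49 ± 0.43 and for Postn 1.35 ± 0.36, with adjusted p-values of 0.354 and 0.323. An adjusted p that misses the threshold does not show that the responses were equal. HSA-MCM and flox males also differ in the range of the numbers in their titles, and genotype and any difference between such cohorts cannot be told apart.

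HSA-MCM females gave a further set of libraries with the recombinase. In a fit over the 12 HSA-MCM libraries of both sexes, 134 of 15677 genes (0.855%) were called in females. Of the 138 male calls tested in this fit, 100 had the same sign in females, and 20 were called in females too, 19 of them in the same direction. These 20 are 14.4% of the male and 14.9% of the female calls. The 138 include Uts2b and Mir6338, which had 0 CPM in every female library and so could not share a sign. Flrt1 rose in females by 6.23 (adjusted p = 6.57e-05). Rhpn2, Lrfn4 and Syt12 rose there by 2.01, 1.75 and 1.91, with adjusted p-values of 0.00131, 0.00623 and 0.0129. Dkk3 and Ostn had log2 changes of -1.34 and -2.61 in females and did not pass (adjusted p = 0.118 and 0.0617). The male minus female difference of the responses was called for 4 genes (0.0255%), and 1302 had an unadjusted p under 0.05. Male and female libraries lie in separate tables, so sex and table cannot be told apart. Amd1, which has near-identical copies, had 390 to 2570 CPM in the HSA-MCM male libraries and 13.3 to 33.5 CPM in the female libraries. The cause of this gap was not tested. The table cancels within each response only where it acts alike on both treatments.

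Of the 4, Stc2 and Irgm2 were called in HSA-MCM males themselves. Stc2 had 6.39, 4.58 and 4.20 CPM after tamoxifen and 0.961, 1.17 and 2.17 CPM after vehicle in males, against 4.41, 4.17 and 6.36 CPM after tamoxifen and 10.7, 11.8 and 8.67 CPM after vehicle in females. The female log2 change, -1.06, did not pass (adjusted p = 0.0775), and the difference of log2 changes between the sexes was 2.90 ± 0.39 (SE; adjusted p = 0.0404). Irgm2, an interferon-inducible GTPase gene whose exons overlap Igtp, had 13.9, 14.4 and 15.6 CPM after tamoxifen and 7.51, 7.91 and 8.15 CPM after vehicle in males. In females it had 9.28, 14.9 and 16.1 CPM after tamoxifen and 32.1, 23.4 and 22.3 CPM after vehicle. The female log2 change of Irgm2, -0.95, passed edgeR's test in the direction opposite to that of males (adjusted p = 0.0357). The difference was 1.85 ± 0.27 (adjusted p = 0.0444). Tfcp2l1, a grainyhead-like transcription factor gene, and Kcne1l, a potassium channel subunit gene, rose in females and did not pass in males, with differences of -1.98 ± 0.23 (adjusted p = 0.0143) and -4.08 ± 0.60 (adjusted p = 0.0444).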

How the data were processed

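RNA was measured by sequencing of gastrocnemius RNA, extracted in Trizol and purified on Qiagen columns per the labels' protocols. The authors deposited raw read counts per Ensembl gene ID, whole numbers with no normalization. STAR, featureCounts, limma, GRCm38 and mm10 are named in the submitters' processing notes, with no versions or roles; library kit, strand setting, multi-mapping and annotation release: not given in the sources used here. For that reason, counts of overlapping, antisense and near-identical genes are uncertain.

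Gene names and GRCm38 coordinates come from GENCODE, which held 54723 of 54752 IDs. All 12 male libraries were fitted with edgeR 4.0.16 in R 4.3.3 (TMM scaling, filterByExpr with minimum count 10 and total 15, robust quasi-likelihood F-test, Benjamini-Hochberg over all genes tested, threshold 0.05). Contrasts were tamoxifen against vehicle in HSA-MCM and in flox males and the difference of the 2; the 12 HSA-MCM libraries of both sexes were fitted for the sex difference. An SE is the log2 change divided by the square root of F. CPM use TMM-scaled library sizes over the libraries of the fit. Depth was 25118053 to 28080536 counts in the 6 HSA-MCM male libraries. On simulated counts with 15376 genes the procedure recovered 27.8%, 57.1% and 95.4% of genes changed 1.5-fold, 2-fold and 4-fold between HSA-MCM groups. For the difference of responses it recovered 1.39%, 31.7% and 73.8%. Among unchanged genes 6 were called for the HSA-MCM comparison and 4 for the difference. Changed genes were drawn only from those with a mean above 1 CPM, so recovery was not tested at lower counts. It was also not tested separately for the wider scatter between HSA-MCM replicates.

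Named genes are Numb, Numbl, Esr1, Myh7 and the slow fibre list; the 12 largest called rises and falls whose mean log2 CPM reached 0, with a gene symbol other than a clone name and no overlap of groups; the 8 most abundant calls; up to 4 calls per gene list; the largest interactions; and called genes within 1 Mb of Flrt1. A gene that this rule names among the falls is not reported here. Actc1, Col1a1, Smox, Adipoq, Plin1, Ucp1, Pcx and the fast myosins were named after their values were seen. The members and gene lists were chosen with earlier results of these data known. Alternatives were other scalings and filters, DESeq2 1.42.0, limma-voom 3.58.1, Myh7 as a covariate, subsets of libraries and each library left out.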

Additional observations from a re-analysis of the deposited data

Results flagged for a closer look

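The difference between the responses of HSA-MCM and flox males passed edgeR's quasi-likelihood test for Eno1b and Aldh3a1. It was -4.86 on the log2 scale for Eno1b (adjusted p = 0.00478) and -5.61 for Aldh3a1 (adjusted p = 0.00644). Both genes were higher after tamoxifen in flox males and did not pass in HSA-MCM males. Most of the transcript sequence of Eno1b is shared with Eno1.

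The difference between the responses of HSA-MCM males and females passed the same test for 4 genes. It was -1.98 for Tfcp2l1, -4.08 for Kcne1l, 2.90 for Stc2 and 1.85 for Irgm2. Tfcp2l1 had 18.1, 19.5 and 15.1 CPM after tamoxifen and 21.2, 24.8 and 32.5 CPM after vehicle in males, against 9.80, 12.2 and 11.7 CPM after tamoxifen and 3.73, 4.79 and 4.17 CPM after vehicle in females. Kcne1l had 0.500, 0.432 and 0.839 CPM after tamoxifen and 0.854, 1.13 and 0.627 CPM after vehicle in males, against 8.39, 4.75 and 2.93 CPM after tamoxifen and 0.351, 0.579 and 0.450 CPM after vehicle in females. Sex and table cannot be told apart for these genes.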

How the results depend on the processing

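The 139 calls of HSA-MCM males were 140 under RLE scaling, 137 under upper quartile scaling, 124 among genes whose mean log2 CPM reached 1, 133 in limma-voom and 207 with Myh7 as a covariate. They were 221 with no low count filter, 328 in DESeq2, 27 in a fit of the 6 HSA-MCM males alone, 14 without the lowest Myh7 library of each male group and 45 without that of each HSA-MCM group. Leaving out each library in turn gave 68 to 151 calls. The count was 68 or 88 without HSA-MCM vehicle library 1 or 2, 69 without HSA-MCM tamoxifen library 3, 85, 80 or 80 without flox tamoxifen library 1, 2 or 3, and 82 or 85 without flox vehicle library 1 or 2. The 2 interaction calls were 38 with no low count filter, 1 among genes whose mean log2 CPM reached 1, 79 in DESeq2, 0 in limma-voom, 4 with Myh7 as a covariate, 1 without the lowest Myh7 library of each HSA-MCM group, and 2 to 8 with each library left out. The 452 calls of flox males were 871 in DESeq2, 769 with Myh7 as a covariate, 40 without the lowest Myh7 library of each male group and 917 in a fit of the 6 flox males alone, with a range of 143 to 644 when each library was left out. The 4 calls between the sexes were 46 with no low count filter, 108 in DESeq2 and 1 with Myh7 as a covariate, and 0 to 9 with each library left out. The alternative that leaves out the lowest Myh7 library of each HSA-MCM group was chosen after seeing the data. Of the 46 called genes named by rule, 7 passed in every alternative that tested them (Flrt1, Rhpn2, Lrfn4, Ostn, Pla2g16, Kmt5a and Adgrb2), 39 were lost in some and 12 in most of them, and 0 reversed. Fits with fewer libraries can have less power, but the fit of the 6 flox males alone gave more calls than the main fit. The main fit estimated the spread of each gene over all 12 male libraries together. Between replicates the chi-square per degree of freedom was 16.3 to 104 in HSA-MCM males and 8.34 to 22.2 in flox males. The cause of these shifts in the count of calls was not tested. No paired analysis was possible because the titles carry numbers that the groups compared do not share. Depth limits genes near or below 1 CPM most.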
